A study of Mus musculus with 52 samples.

Results

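The non-endothelial (parenchymal) cells of the WT mouse pituitary were compared between the anterior and the posterior lobe by RNA-seq. The comparison uses every library of GFP-negative cells from these lobes of WT mice, 2 from the anterior and 2 from the posterior pituitary, which are 4 of the 52 samples of the series. All came from adult male Tie2-GFP mice, in which the Tie2 (Tek) promoter drives GFP in vascular endothelial cells (ECs), and carried no other engineered allele. The posterior lobe was dissected away from the anterior lobe, and lobes of many mice were pooled for each replicate. The tissue was dissociated with papain, and cells without GFP were collected by FACS. A library is thus a pool of animals and holds every viable cell type that survived dissociation and showed no GFP. The wider study asked how ECs of brain regions that lack a blood-brain barrier differ from barrier ECs, and whether stabilizing beta-catenin in ECs changes them. The parenchymal libraries are the surroundings of those ECs. A second pair of lobes, from Tie2-GFP; Pdgfb-CreER; BcatEx3fl mice in which beta-catenin had been stabilized in ECs by an endothelial CreER induced with 4-hydroxytamoxifen, is set beside the WT lobes at the end.

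The anterior lobe is built from endocrine cell types that each make a hormone: somatotrophs growth hormone, lactotrophs prolactin, thyrotrophs thyrotropin, gonadotrophs the gonadotropins, and corticotrophs ACTH, which is cut from the precursor POMC. The posterior lobe is neural tissue. It holds the axon endings of hypothalamic neurons that release vasopressin and oxytocin, whose cell bodies lie in the brain, and glial cells called pituicytes. The intermediate lobe lies between them, adheres to the posterior lobe in mice, and is made up of melanotrophs, which make POMC and cut it into melanocyte-stimulating hormone. Capillaries of both lobes are fenestrated and respond to factors secreted by the cells around them.

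Transcript levels are given as TPM, the share of all transcripts in a library after correction for transcript length on a fixed total, with replicate 1 before replicate 2, and the log2 fold changes as anterior minus posterior ± SE from edgeR's quasi-likelihood test of read counts (n = 2 libraries per lobe). A gene was called when its Benjamini-Hochberg adjusted p was under 0.05 and its fold change at least 2. Where no other test is named, calls are those of edgeR with all libraries and a filter on low counts. Where the calls of DESeq2 and of edgeR without the filter differ, they are given beside these or in the section on processing. Where 1 of 3 further edgeR fits ended a call, its adjusted p follows as lost. These used only the 4 WT lobe libraries (4-library fit), an offset for transcript length (length fit) or all 24 sorted libraries (24-library fit). Where an alternative fit moved a fold change by over 1.5 times, the range of its log2 value over the alternatives follows it, fits in which a lobe had no read being left out. The libraries held 31560159 and 31643746 estimated reads for the anterior and 34681485 and 18406617 for the posterior lobe, and 11863 to 12889 genes reached 1 TPM. Mitochondrially encoded genes took 10.3 to 20.3% of reads, and a single small RNA locus, Mir6236, took 9.18 to 24.5% of all TPM. Across the 19612 genes tested, log2 CPM (counts scaled to library size) correlated between replicates at r = 0.85 in the anterior and 0.81 in the posterior lobe, and at 0.81 and 0.78 between the lobes, which describes genes within libraries and carries no test. The p-values of edgeR with all libraries use a spread between replicate pools estimated over the 12 GFP-negative libraries, cerebellum and stabilized lobes included. They do not measure the spread of the 2 pools per lobe alone. In sorted bulk cells a lower level cannot be told apart from fewer cells of the type that makes the transcript.

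At this threshold 172 genes were higher in the anterior lobe, which is 0.877% of the genes tested. In the posterior lobe 155 were higher, or 0.790%. These shares are the background for each count of called list members by this test. Without adjustment, 2602 genes had p under 0.05. DESeq2 called 926 anterior and 632 posterior genes and edgeR without the filter 566 and 452. The length fit called 92 and 80, the 4-library fit 54 and 68 and the 24-library fit 148 and 73. All 172 anterior genes and 150 of the 155 posterior genes were protein-coding. The TPM ranges of the lobes did not overlap for 168 of the 172 and for 153 of the 155 called genes. These genes were chosen by a test on the same libraries, so this separation is no further evidence. Its share over all genes tested was not counted. The 1 gene whose mean TPM lay in the other direction, named for that after its values were seen, was Thsd7a, a thrombospondin-domain membrane protein called higher in the anterior lobe by its reads although its levels were 16.6 and 19.5 against 11.1 and 26.4 TPM. With an offset for transcript length its log2 fold change was 0.17 (adjusted p = 0.987), and the call was also lost at adjusted p = 0.0573 without posterior replicate 2 and at 0.0509 in the 24-library fit. The median log2 fold change was 6.07 among anterior calls and -3.22 among posterior calls. Of the anterior genes, 33 had no read in either posterior library, and with each of these at the smallest fold that 3 counts per library allow the anterior median was 5.65. Of the posterior genes, 16 had no read in either anterior library. Posterior replicate 1 set the counts most: without it, 764 and 306 genes were called, and without posterior replicate 2, 274 anterior genes were called. Here the remaining posterior library is assumed to vary like the other groups. Both lobes of a replicate were taken from the same mice as the study's methods describe it. With the replicate number as a block within genotype 191 anterior and 159 posterior genes were called, and with this block over the 4 WT libraries alone 311 and 303.

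**Figure D1:**
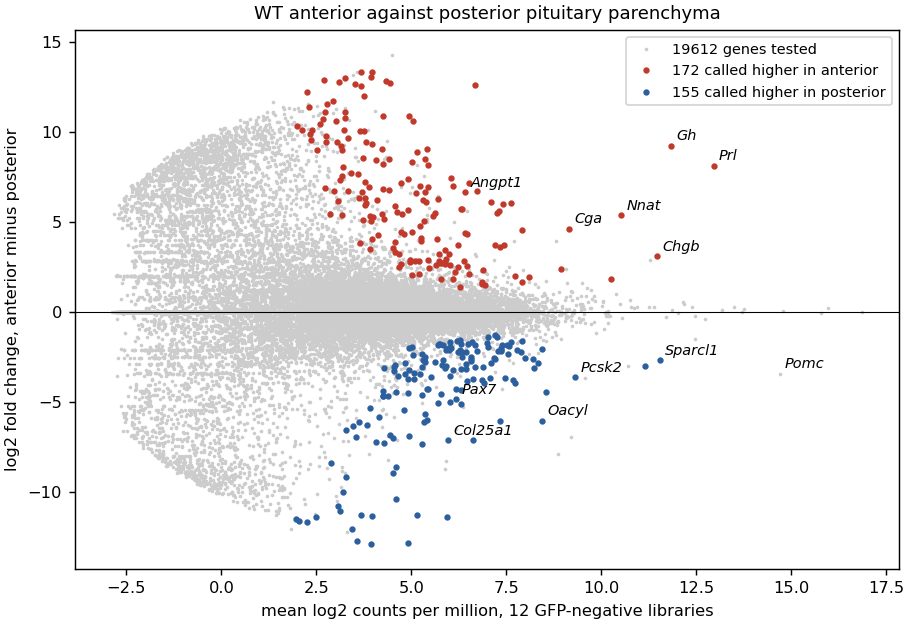
Each point is a gene tested, with its mean log2 CPM over the 12 GFP-negative libraries of the fit on the x axis and its log2 fold change, anterior minus posterior, on the y axis; red and blue points are the 172 and 155 called genes. Prl and Gh stand among the most abundant anterior calls, while Pomc lies far below 0 at the right edge as an uncalled gene.

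Hormone transcripts differed widely between the lobes. Of the 7 hormone subunit genes, edgeR called 4 higher in the anterior lobe, none higher in the posterior lobe and left 3 uncalled. DESeq2 called 4 anterior and 1 posterior and edgeR without the filter 6 anterior and 1 posterior. Prl, which encodes prolactin, was at 31239 and 45324 TPM in the anterior and 119.7 and 119 TPM in the posterior libraries, 320.4-fold apart by mean TPM (log2 fold change 8.13 ± 1.0, adjusted p = 0.00245). Gh, for growth hormone, was at 3600.2 and 4639.8 TPM in the anterior and 12.8 and 0.687 TPM in the posterior libraries (log2 fold change 9.23 ± 1.33, log2 range 8.31 to 12.81, adjusted p = 0.00483). For both genes every anterior library lay far above every posterior library. Cga, the alpha subunit shared by thyrotropin and the gonadotropins, was at 2085 and 3008 TPM in the anterior and 117 and 110.1 TPM in the posterior libraries (log2 fold change 4.63 ± 0.85, adjusted p = 0.0185, lost at 0.0785 in the 24-library fit). Fshb, the beta subunit of follicle-stimulating hormone, was at 226 and 318 TPM in the anterior and 3.49 and 7.32 TPM in the posterior libraries (log2 fold change 5.63 ± 0.93, adjusted p = 0.0102, lost at 0.0702 in the 24-library fit). These 2 glycoprotein hormone subunits thus followed the pattern of Prl and Gh, at lower levels. Counted by lineage marker lists, 2 of 4 somatotroph, 1 of 4 thyrotroph and 2 of 6 gonadotroph genes were higher in the anterior lobe and none in the posterior lobe, and of 4 lactotroph genes 2 were higher in the anterior and 1, Drd2, in the posterior lobe. By DESeq2 these counts were the same except for 2 thyrotroph genes. Without the filter edgeR called 3 lactotroph, 3 thyrotroph and 3 gonadotroph genes in the anterior direction.

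The beta subunits of thyrotropin and luteinizing hormone were not called, although their TPM ranges did not overlap. Tshb was at 240.3 and 306 TPM in the anterior and 0 and 1.07 TPM in the posterior libraries (log2 fold change 5.79 ± 1.64, log2 range 4.76 to 9.31, adjusted p = 0.135), with the 113 posterior reads all in replicate 2. Lhb was at 94.1 and 188 TPM in the anterior and 15.9 and 0 TPM in the posterior libraries (log2 fold change 3.99 ± 1.82, log2 range 3.0 to 5.73, adjusted p = 0.375), and its posterior reads were all in replicate 1. Leaving out any 1 library brought Tshb past the threshold, with adjusted p = 0.0371 without anterior replicate 1, 0.0474 without anterior replicate 2, 0.00724 without posterior replicate 1 and 0.000114 without posterior replicate 2. Lhb passed at adjusted p = 0.00697 without posterior replicate 1. With a replicate block over the 4 WT libraries both passed, at adjusted p = 3.62e-27 and 1.85e-09, and without the filter on low counts at 1.64e-17 and 2.73e-08. Tshb also passed in the length fit, at adjusted p = 0.0131. Over all alternatives adjusted p ran from 3.62e-27 to 0.396 for Tshb and from 1.85e-09 to 0.595 for Lhb.

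Pomc ran the other way. It was at 6188 and 6604 TPM in the anterior and 53738 and 55689 TPM in the posterior libraries, 8.55-fold higher in the posterior lobe by mean TPM, and was the fourth most abundant transcript there after Mir6236 and 2 mitochondrial transcripts. The replicates of each lobe lay close together and the lobes did not overlap, but the gene was not called (log2 fold change -3.44 ± 1.28, adjusted p = 0.266). The spread in this test comes from all 12 GFP-negative libraries, cerebellum included. In the 4-library fit the test gave adjusted p = 0.0354, DESeq2 gave 0.00791, and over all alternatives the range was 1.61e-13 to 0.401. Together Gh, Prl and Pomc made up 4.10 and 5.66% of TPM in the anterior and 5.39 and 5.58% in the posterior libraries. The joint share thus overlapped between the lobes, while the hormone that led it did not.

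**Figure D2:**
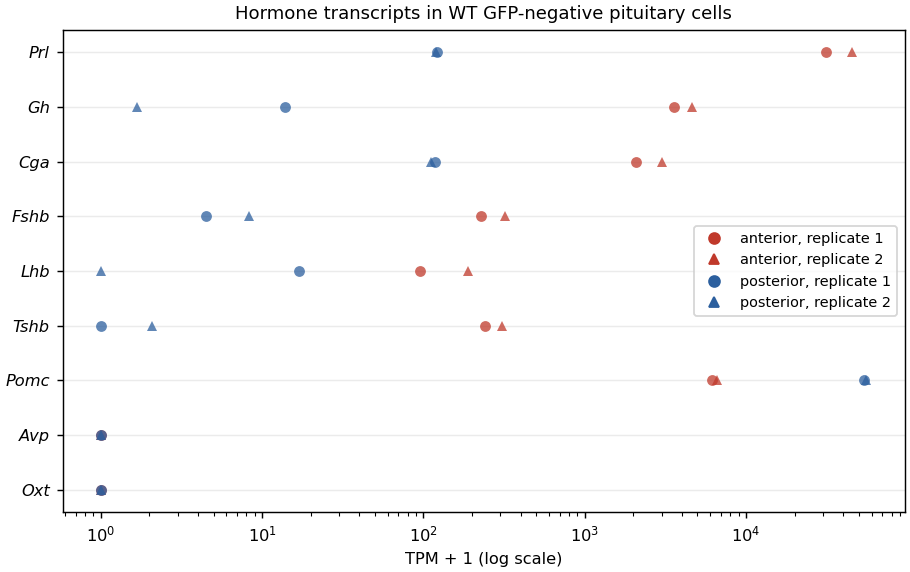
Levels of 9 hormone transcripts in the 4 WT GFP-negative libraries, as TPM plus 1 on a log axis; red marks the anterior and blue the posterior lobe, circles replicate 1 and triangles replicate 2. Prl, Gh, Cga, Fshb, Lhb and Tshb lie to the right in the anterior lobe, Pomc in the posterior lobe, and Avp and Oxt are at 0 in all 4 libraries.

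The sequences before the 2 dominant hormone genes are shown because these were the most abundant hormone transcripts of the anterior and of the posterior libraries and are made by different cell types, although Pomc was not called. Prl and Pomc were matched by symbol in RefSeq's table of promoters (GRCm38.p6, 250 bases before to 50 after the start, sense strand), which holds 10 of the 12 genes looked up. Gh and Angpt1 were not in it. The Prl promoter is chr13:27057320-27057619 and the Pomc promoter is chr12:3954695-3954994, both on the plus strand. Capitals mark matches on either strand to TATNCAT, the core recognized by the pituitary factor POU1F1, and to TATAAA, the TATA box.
Prl: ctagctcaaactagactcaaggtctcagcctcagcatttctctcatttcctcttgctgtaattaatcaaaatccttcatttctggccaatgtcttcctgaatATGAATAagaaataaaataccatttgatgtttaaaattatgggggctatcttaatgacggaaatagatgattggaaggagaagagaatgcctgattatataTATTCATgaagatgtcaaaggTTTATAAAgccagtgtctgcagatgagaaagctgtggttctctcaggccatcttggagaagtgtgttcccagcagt
Pomc: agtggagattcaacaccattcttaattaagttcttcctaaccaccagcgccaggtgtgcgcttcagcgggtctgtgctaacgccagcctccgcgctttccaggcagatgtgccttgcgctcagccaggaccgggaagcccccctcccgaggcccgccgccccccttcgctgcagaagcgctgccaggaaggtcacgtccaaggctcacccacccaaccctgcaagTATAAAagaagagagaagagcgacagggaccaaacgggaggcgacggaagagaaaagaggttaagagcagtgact
The Prl window holds 2 matches to TATNCAT and 2 to TATAAA, the latter overlapping on opposite strands. The Pomc window holds 1 TATAAA and no TATNCAT. Of 32851 promoters of this length, 8.84% hold TATNCAT and 13.6% hold TATAAA. The TATA box motif was also found in the windows of Tshb (4 matches), Cga, Fshb and Lhb (1 each), and neither motif in those of Pcsk2, Pax7, Col25a1 and Chgb. These matches describe letters in a window and not binding.

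The label of the posterior libraries was checked against the defining markers of the cells it could hold. Markers of intermediate-lobe melanotrophs led. Of 5 melanotroph genes, edgeR called 4 higher in the posterior lobe and the fifth was Pomc, which DESeq2 and edgeR without the filter also called, with a median log2 fold change of -3.44 against 0 over all genes tested. Pcsk2, the prohormone convertase that cuts ACTH further to melanocyte-stimulating hormone, was at 14.6 and 14 TPM in the anterior and 178 and 246 TPM in the posterior libraries (log2 fold change -3.62 ± 0.54, adjusted p = 0.00475). Pax7, the factor that sets melanotroph identity, was at 1.66 and 0.866 TPM in the anterior and 36.7 and 50.4 TPM in the posterior libraries (log2 fold change -4.86 ± 0.56, adjusted p = 0.00204, lost at 0.0909 in the 24-library fit). Neither gene's anterior range came near its posterior range. Drd2, the dopamine receptor that restrains both melanotrophs and lactotrophs, was at 20.7 and 29.8 TPM in the anterior and 73.6 and 138 TPM in the posterior libraries (log2 fold change -1.85 ± 0.35, adjusted p = 0.0228, lost at 0.102 in the length and 0.572 in the 24-library fit). Tbx19, the T-box factor of the POMC lineages, was at 12.3 and 21.1 TPM in the anterior and 47.6 and 119 TPM in the posterior libraries (log2 fold change -2.10 ± 0.40, adjusted p = 0.0266, lost at 0.0637 in the 4-library, 0.0887 in the length and 0.511 in the 24-library fit). These 2 calls rested on single libraries: for Drd2 the test gave adjusted p = 0.157 without anterior replicate 1 and 0.0689 without anterior replicate 2, and for Tbx19 adjusted p = 0.136 without anterior replicate 1 and 0.0617 without posterior replicate 2. Over all alternatives the ranges were 6.19e-06 to 0.572 and 6.83e-06 to 0.511. The corticotroph list, which shares Pomc and Tbx19 with melanotrophs, had 1 posterior call of 5 by edgeR and 2, with Pomc, by DESeq2 and without the filter, and its receptors Crhr1 and Avpr1b were low in every library (4.07 and 1.58 against 4.9 and 0.46 TPM and 4.28 and 4.55 against 2 and 9.07 TPM).

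Pituicyte markers were present in part. Of 7 genes, edgeR called 3 higher in the posterior lobe, with or without the filter. DESeq2 called 4, while 6 had an unadjusted p under 0.05. Col25a1, a membrane collagen, was at 0.196 and 0.226 TPM in the anterior and 36.6 and 33.7 TPM in the posterior libraries (log2 fold change -7.12 ± 1.0, log2 range -8.08 to -6.55, adjusted p = 0.00348). Scn7a, the sodium-sensing channel of glia in sensory and neurosecretory regions, was at 0.326 and 0.695 TPM in the anterior and 12.9 and 8.93 TPM in the posterior libraries (log2 fold change -4.36 ± 0.68, log2 range -4.84 to -3.63, adjusted p = 0.0058, lost at 0.168 in the 24-library fit). Slc1a3, the glial glutamate transporter GLAST, was at 4.23 and 1.04 TPM in the anterior and 17.2 and 40.9 TPM in the posterior libraries (log2 fold change -3.03 ± 0.55, log2 range -3.77 to -2.55, adjusted p = 0.0143, lost at 0.133 in the 4-library, 0.0947 in the length and 0.131 in the 24-library fit). All 3 separated the lobes without overlap. Of the hypothalamic transcription factors that define pituicytes, Rax had reads in posterior replicate 2 alone (8.76 TPM), Lhx2 was at 0.00536 and 0 against 1.5 and 2.68 TPM and Nkx2-1 at 0 and 0.29 against 0.992 and 0.037 TPM. Lhx2 was called by DESeq2 alone (log2 fold change -8.75 ± 2.49, log2 range -9.19 to -7.94, adjusted p = 0.139 by edgeR, 0.00108 by DESeq2; range 0.00108 to 0.401). Gja1, the gap junction protein connexin 43, split by replicate and not by lobe (1.02 and 42.4 against 2.57 and 32.2 TPM). Summed over the list, pituicyte markers reached 5.78 and 44.7 TPM in the anterior and 71.8 and 127 TPM in the posterior libraries, while melanotroph markers, nearly all of it Pomc, reached 6237 and 6669.6 TPM in the anterior and 54074 and 56242 TPM in the posterior libraries. The posterior libraries thus held transcripts that mark melanotrophs and some of those that mark pituicytes. The sum was much lower for the pituicyte list, with most of the size of this gap due to Pomc in the melanotroph list. Of single genes in the posterior libraries, Pcsk2 was at 178 and 246, Pax7 at 36.7 and 50.4 and Col25a1 at 36.6 and 33.7 TPM. The cells of these libraries are called posterior lobe cells here, not neurohypophyseal cells. The part of the intermediate lobe in each posterior difference was not tested.

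Calls among astrocyte and oligodendrocyte markers depended on the filter and the test. None of the 6 astrocyte, 6 oligodendrocyte and 5 oligodendrocyte precursor genes was called by edgeR with all libraries and the filter on low counts, while 4, 3 and 1 had an unadjusted p under 0.05, and DESeq2 called 2 anterior and 2 posterior astrocyte genes and none of the others. Without the filter edgeR called 3 anterior and 3 posterior astrocyte genes (among them Fabp7 (posterior direction, adjusted p = 8.42e-05 without the filter; range 8.42e-05 to 1)), 1 anterior and 2 posterior oligodendrocyte genes and no precursor gene. The oligodendrocyte list summed to 9.11 and 37.1 TPM in the anterior and 18.2 and 6.88 TPM in the posterior libraries and the astrocyte list to 10.5 and 3.49 TPM in the anterior and 4.71 and 4.7 TPM in the posterior libraries. Gfap was at 0 in both posterior libraries, Aqp4, the astrocyte water channel, was at 0.937 and 0.394 against 1.9 and 2.68 TPM, and S100b at 0 and 0.0457 against 0.434 and 0.09 TPM. Each of the 3 passed when 1 library was left out, Gfap in the anterior direction at adjusted p = 0.0264 without anterior replicate 1, Aqp4 in the posterior direction at adjusted p = 0.0235 without anterior replicate 1 and S100b in the posterior direction at adjusted p = 0.0271 without posterior replicate 2. By DESeq2 and without the filter they passed too, Gfap at adjusted p = 0.00622 by DESeq2 and 0.00105 without the filter, Aqp4 at 0.0199 by DESeq2 and 0.00241 without the filter and S100b at 0.0396 by DESeq2 and 0.000194 without the filter. Over all alternatives the ranges were 0.00105 to 0.29, 0.00241 to 0.793 and 0.000194 to 0.678. Among other genes of these lists that passed then were Aldh1l1 (anterior direction, adjusted p = 0.000843 without anterior replicate 2, 0.0188 without posterior replicate 2, 0.000792 by DESeq2 and 2.92e-11 without the filter; range 2.92e-11 to 0.973), Slc1a2 (anterior direction, adjusted p = 0.00385 without posterior replicate 2, 0.0187 without the filter; range 0.00385 to 1), Mag (anterior direction, adjusted p = 0.012 without anterior replicate 2, 3.51e-09 without the filter; range 3.51e-09 to 0.809), Mobp (posterior direction, adjusted p = 0.00102 without posterior replicate 1, 1.87e-16 without the filter; range 1.87e-16 to 1) and Cnp (anterior direction, adjusted p = 0.00228 without posterior replicate 1; range 0.00228 to 1). Avp and Oxt, the transcripts for vasopressin and oxytocin, had no read in any of the 4 WT libraries, which allows up to 3 counts per library. In the stabilized posterior libraries they were at 23.1 and 11.7 TPM and 17.4 and 3.62 TPM and at 0 in the stabilized anterior libraries, which did not pass the test (adjusted p = 0.43 and adjusted p = 0.747).

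**Figure D3:**
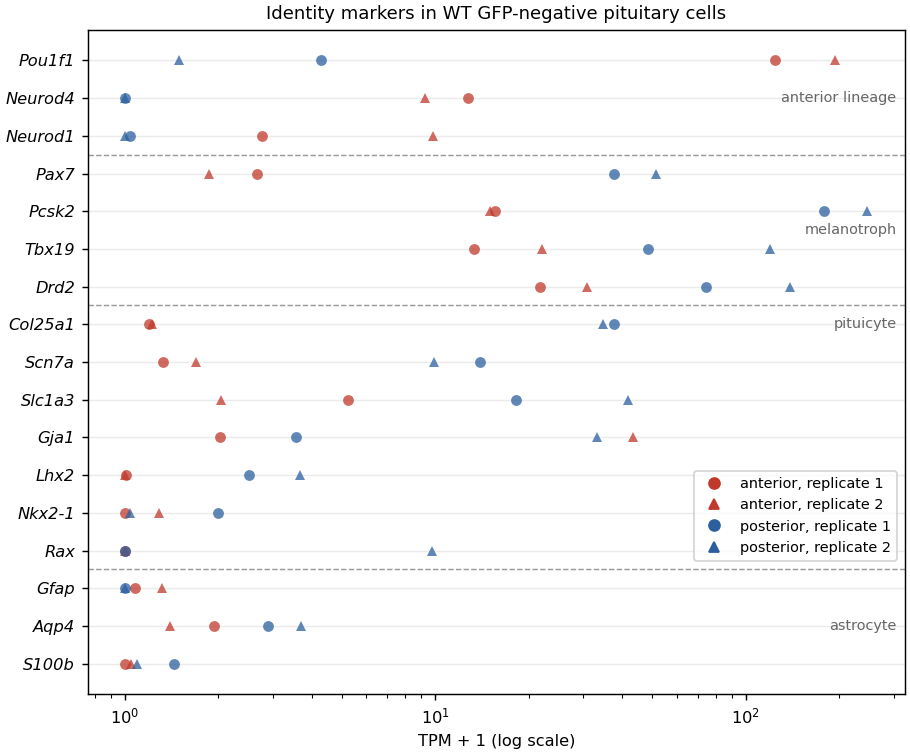
Levels of 17 identity markers in the 4 WT GFP-negative libraries, as TPM plus 1 on a log axis, grouped into anterior lineage factors, melanotroph, pituicyte and astrocyte genes; red marks the anterior and blue the posterior lobe. Melanotroph genes and Col25a1, Scn7a and Slc1a3 lie to the right in the posterior lobe, and the remaining pituicyte and astrocyte genes mostly stay at a few TPM or less.

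Of 16 transcription factors of the anterior lineages, 15 were tested, of which edgeR called 3 higher in the anterior and 2 (Pax7 and Tbx19) in the posterior lobe. DESeq2 called 6 anterior and 2 posterior and edgeR without the filter 5 anterior and 2 posterior, among them Foxl2 (anterior direction, adjusted p = 0.0208 by DESeq2 and 0.0203 in the 24-library fit; range 0.0203 to 0.554). Pou1f1, which is required for somatotrophs, lactotrophs and thyrotrophs, was at 123 and 192 TPM in the anterior and 3.29 and 0.491 TPM in the posterior libraries (log2 fold change 6.26 ± 1.06, log2 range 5.46 to 8.41, adjusted p = 0.00957). Neurod4, a bHLH factor of endocrine differentiation, was at 11.8 and 8.25 TPM in the anterior lobe and had no posterior read, at least 418-fold higher (adjusted p = 0.00274). Its relative Neurod1 was at 1.76 and 8.83 TPM in the anterior and 0.0375 and 0 TPM in the posterior libraries (log2 fold change 7.46 ± 0.94, log2 range 6.08 to 8.15, adjusted p = 0.00232, lost at 0.267 in the 4-library fit; adjusted p = 0.145 with a replicate block over the 4 WT libraries, range 5.29e-25 to 0.267). The erythroid and thyrotroph factor Gata2 (anterior direction, adjusted p = 0.00414 without posterior replicate 1, 0.000272 with a replicate block over the 4 WT libraries, 0.0128 by DESeq2 and 0.0134 without the filter and 0.0386 in the 24-library fit; range 0.000272 to 0.355) was not called with all libraries. Several factors shared by the pituitary endocrine lineages were not called. Pitx1 was at 20.2 and 17.7 against 21.6 and 18.8 TPM, Lhx3 at 15.3 and 13.2 against 12.2 and 12.1 TPM and Insm1 at 43.3 and 71.7 against 40.7 and 62.9 TPM. Among 15 hypothalamic and glial factors tested, edgeR called none higher in the anterior and 2 higher in the posterior lobe. DESeq2 called 0 anterior and 5 posterior and edgeR without the filter 0 anterior and 4 posterior, among them Otx2 (posterior direction, adjusted p = 0.00839 by DESeq2 and 0.0124 without the filter; range 0.00839 to 0.512) and Lhx2, given above. The glial factor Sox9 (posterior direction, adjusted p = 0.00567 without posterior replicate 2, 0.00535 with a replicate block over the 4 WT libraries, 0.0057 by DESeq2 and 6.19e-05 without the filter; range 6.19e-05 to 0.334) was not called with all libraries. Six3, a homeobox factor of the ventral forebrain and the pituitary, was at 29.1 and 53.2 TPM in the anterior and 136 and 169.6 TPM in the posterior libraries (log2 fold change -1.74 ± 0.34, adjusted p = 0.0288, lost at 0.0886 in the 4-library, 0.106 in the length and 0.519 in the 24-library fit). Nfib, a nuclear factor I protein of glial differentiation, was at 5.5 and 6.61 TPM in the anterior and 76.1 and 31.1 TPM in the posterior libraries (log2 fold change -1.59 ± 0.33, log2 range -3.17 to -1.37, adjusted p = 0.0292, lost at 0.11 in the 4-library fit), and its log2 fold change was -3.17 with an offset for transcript length. Both calls were lost without an anterior library, with adjusted p = 0.223 without anterior replicate 1 and 0.0505 without anterior replicate 2 for Six3 and adjusted p = 0.259 without anterior replicate 1 and 0.0625 without anterior replicate 2 for Nfib. Over all alternatives the ranges were 0.00013 to 0.519 and 0.000139 to 0.259.

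Receptors for releasing and inhibiting hormones largely did not pass the test. Of 17 tested, edgeR called 1 higher in the anterior and 2 in the posterior lobe. DESeq2 called 3 anterior and 2 posterior and edgeR without the filter 4 anterior and 2 posterior. Thrb, the thyroid hormone receptor that feeds back on thyrotrophs, was at 25.4 and 35.5 TPM in the anterior and 0.669 and 3.98 TPM in the posterior libraries (log2 fold change 4.07 ± 0.65, adjusted p = 0.00727, lost at 0.0614 in the length and 0.135 in the 24-library fit). Sstr1, a somatostatin receptor, was at 0 and 0.146 TPM in the anterior and 10.3 and 17.4 TPM in the posterior libraries (log2 fold change -7.21 ± 1.41, log2 range -8.05 to -6.23, adjusted p = 0.0258, lost at 0.164 in the 4-library and 0.0886 in the 24-library fit). Drd2 is described above. Esr1, the estrogen receptor of lactotrophs, was at 44.2 and 42.1 against 5.53 and 6.74 TPM (adjusted p = 0.0909, but adjusted p = 0.0467 without anterior replicate 1 and 0.0489 without anterior replicate 2, 3.17e-12 with a replicate block over the 4 WT libraries and 7.43e-10 without the filter and 0.0122 in the 4-library fit; range 3.17e-12 to 0.186). Gnrhr, the gonadotroph receptor for GnRH, was at 17.5 and 35.1 against 6.54 and 4.87 TPM (adjusted p = 0.303). Other uncalled receptors of this list passed with 1 library left out or with a replicate block, namely Trhr (anterior direction, adjusted p = 0.0103 without posterior replicate 1, 0.00025 by DESeq2 and 0.0451 without the filter; range 0.00025 to 0.373) and Adcyap1r1 (anterior direction, adjusted p = 0.0078 without posterior replicate 1, 0.0262 with a replicate block within genotype, 0.00578 by DESeq2 and 0.0085 without the filter; range 0.00578 to 0.479). The secretory granule machinery was abundant in both lobes. Of 14 genes for granule proteins and prohormone processing, edgeR called Chgb higher in the anterior lobe and Pcsk2 higher in the posterior lobe and left 12 uncalled. Without adjustment 5 had p under 0.05. DESeq2 also called Scg5 (anterior direction, adjusted p = 0.0268 by DESeq2; range 0.0268 to 0.673). Chgb, the granule protein secretogranin I, was at 3369.8 and 4257 TPM in the anterior and 451 and 540.4 TPM in the posterior libraries (log2 fold change 3.08 ± 0.41, adjusted p = 0.00249, lost at 0.0588 in the 24-library fit). Chga was at 401 and 429.9 against 452 and 604 TPM, and Cpe, the carboxypeptidase that trims peptide hormones, at 1542 and 1792 against 1502 and 1468 TPM. Scg2 was at 1442 and 1695 against 959.7 and 1190.3 TPM and Scg5, the PC2 chaperone 7B2, at 1109 and 1246 against 561 and 549 TPM. Pcsk1, the convertase that makes ACTH, was at 79.9 and 52.4 against 33.1 and 103 TPM.

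Among 22 neuropeptide genes, 15 were tested and edgeR called 1. Without adjustment 6 had p under 0.05. DESeq2 called 4 and edgeR without the filter 2, all in the anterior direction. Gal, for galanin, a peptide made by lactotrophs, was at 32.1 and 92.2 TPM in the anterior lobe and had no posterior read, at least 285-fold higher (adjusted p = 0.0108, lost at 0.0551 in the 24-library fit). Of the further genes, Penk, for proenkephalin, was at 1.08 and 1.17 against 0.0219 and 0.0538 TPM (log2 fold change 4.87 ± 1.48, adjusted p = 0.152; 0.014 by DESeq2 and 0.000753 without the filter, range 0.000753 to 0.95). Others were Cartpt (anterior direction, adjusted p = 0.029 by DESeq2; range 0.029 to 0.693) and Grp (anterior direction, adjusted p = 0.00438 by DESeq2; range 0.00438 to 0.538). Pdyn, for prodynorphin, was at 4.56 and 5.5 against 24.9 and 15.6 TPM (adjusted p = 0.215). Vip (0.688 and 14 against 0 and 0 TPM), Cartpt (1.89 and 11.3 against 0 and 0.0739 TPM) and Cck (0 and 18.5 against 0 and 0 TPM) rested mostly on anterior replicate 2. Among 12 glial channels and transporters, edgeR called 2 higher in the anterior and 1 (Slc1a3) in the posterior lobe. DESeq2 called 2 anterior and 3 posterior and edgeR without the filter 3 anterior and 4 posterior, among them Slc6a13 (posterior direction, adjusted p = 0.0281 by DESeq2 and 0.0281 without the filter; range 0.0281 to 0.703) and Slc4a4 (posterior direction, adjusted p = 0.047 without the filter; range 0.047 to 0.771). Slc6a11, a GABA transporter, was at 5.97 and 6.69 against 0.241 and 0 TPM (log2 fold change 5.50 ± 1.03, log2 range 4.57 to 6.73, adjusted p = 0.017, lost at 0.254 in the 4-library and 0.105 in the 24-library fit). Kcnj10, a glial potassium channel, was at 1.32 and 2.37 against 0.00553 and 0.215 TPM (log2 fold change 4.56 ± 1.01, log2 range 3.50 to 8.14, adjusted p = 0.0404, lost at 0.371 in the 4-library and 0.0527 in the length fit; adjusted p = 0.117 with a replicate block over the 4 WT libraries, range 2.79e-19 to 0.371). Glul, glutamine synthetase, overlapped between the lobes (101 and 116 against 102 and 117 TPM).

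Markers of other cells that the GFP-negative gate could hold were counted list by list. None of the 10 endothelial, 8 microglial, 6 macrophage, 6 other leukocyte, 5 fibroblast, 4 Schwann cell and 6 stem or folliculostellate genes was called by edgeR with all libraries, and none of 8 immediate early genes, which respond to dissociation. In this order 0, 2, 2, 1, 1, 2, 2 and 0 of them had an unadjusted p under 0.05, and DESeq2 called 1 anterior and 1 posterior microglial gene, 1 posterior macrophage gene, 1 anterior gene each of the leukocyte and fibroblast lists and 2 anterior stem or folliculostellate genes. Without the filter on low counts edgeR called the same numbers per list and direction and 1 anterior Schwann cell gene. With 1 library left out or with a replicate block, single microglial and macrophage genes passed in either direction, namely P2ry12 (posterior direction, adjusted p = 0.0135 without anterior replicate 1, 0.00531 without posterior replicate 1, 0.0149 without posterior replicate 2, 0.0191 with a replicate block within genotype, 8.13e-06 by DESeq2 and 3.26e-10 without the filter; range 3.26e-10 to 0.342), Tmem119 (anterior direction, adjusted p = 0.0162 without anterior replicate 1, 0.00138 by DESeq2 and 0.00431 without the filter; range 0.00138 to 0.722), Csf1r (anterior direction, adjusted p = 0.00667 without posterior replicate 1; range 0.00667 to 0.908), Mrc1 (anterior direction, adjusted p = 0.00475 without posterior replicate 1; range 0.00475 to 1) and Cd163 (posterior direction, adjusted p = 0.0167 without posterior replicate 1, 0.00219 by DESeq2 and 0.0395 without the filter; range 0.00219 to 1). So did Col1a2 (anterior direction, adjusted p = 0.0369 without posterior replicate 1, 0.0274 with a replicate block within genotype and 2.25e-05 with a replicate block over the 4 WT libraries, 0.0054 by DESeq2 and 0.00044 without the filter; range 2.25e-05 to 0.339), Pmp22 (anterior direction, adjusted p = 0.000502 without posterior replicate 2, 0.0488 without the filter; range 0.000502 to 0.915), Aldh1a2 (anterior direction, adjusted p = 0.0464 without posterior replicate 1, 2.46e-09 with a replicate block over the 4 WT libraries, 0.0244 by DESeq2 and 2.64e-06 without the filter; range 2.46e-09 to 0.37), Ier2 (anterior direction, adjusted p = 0.02 without posterior replicate 1, 0.0283 with a replicate block over the 4 WT libraries; range 0.02 to 0.906) and Atf3 (posterior direction, adjusted p = 0.0233 with a replicate block over the 4 WT libraries; range 0.0233 to 0.797). No endothelial or other leukocyte gene did. By DESeq2 and without the filter alone the genes were S100a9 (anterior direction, adjusted p = 0.0085 by DESeq2 and 0.0286 without the filter; range 0.0085 to 0.527) and Aldh3a1 (anterior direction, adjusted p = 3.66e-05 by DESeq2 and 0.0029 without the filter; range 3.66e-05 to 0.187). Endothelial markers summed to 30.1 and 25.6 TPM in the anterior and 7.1 and 3.33 TPM in the posterior libraries, against a level of 347 and 372 TPM in anterior and 555 and 536 TPM in posterior ECs for Kdr alone in the sorted GFP-positive cells. Mural markers, which mark pericytes and smooth muscle, had 2 anterior calls of 8 by edgeR. By other tests DESeq2 called 5 anterior and 1 posterior and edgeR without the filter 5 anterior and 1 posterior. The 2 were Pdgfrb at 3.33 and 3.02 against 0.168 and 0.0191 TPM (log2 fold change 5.03 ± 0.82, log2 range 4.20 to 7.84, adjusted p = 0.0079, lost at 0.193 in the 4-library fit) and Kcnj8 at 0.373 and 3.44 against 0.0101 and 0 TPM (249-fold, 95% counting interval 44.4 to 9871; adjusted p = 0.0143, lost at 0.378 in the 4-library fit; adjusted p = 0.735 with a replicate block over the 4 WT libraries, range 1.55e-05 to 0.735). Uncalled mural genes that passed with 1 library left out or with a replicate block were Rgs5 (anterior direction, adjusted p = 0.0214 without anterior replicate 2, 0.0316 without posterior replicate 1, 0.0183 with a replicate block within genotype and 0.00623 with a replicate block over the 4 WT libraries, 0.00274 by DESeq2 and 0.000153 without the filter and 0.0245 in the 24-library fit; range 0.000153 to 0.81), Acta2 (posterior direction, adjusted p = 0.00378 without posterior replicate 2, 0.0353 by DESeq2 and 0.00139 without the filter; range 0.00139 to 0.821), Abcc9 (anterior direction, adjusted p = 0.0344 with a replicate block within genotype, 0.00724 by DESeq2 and 0.00359 without the filter; range 0.00359 to 1) and Notch3 (anterior direction, adjusted p = 0.0105 without posterior replicate 1, 0.0462 with a replicate block within genotype, 0.0168 by DESeq2 and 0.00124 without the filter; range 0.00124 to 0.356). Their list summed to 23.8 and 21.7 TPM in the anterior and 21.5 and 5.21 TPM in the posterior libraries. Erythrocyte markers had 1 anterior call of 5 by edgeR, 2 by DESeq2 and 5 by edgeR without the filter. The 1 was Hba-a1 (15.6 and 74.7 against 0 and 0 TPM, at least 251-fold higher; adjusted p = 0.0194, lost at 0.0559 in the 4-library fit), whose reads can be split with its near-identical copy Hba-a2 (61.2 and 38 against 18.1 and 0.636 TPM; called at adjusted p = 0.0152 without posterior replicate 1 and 1.49e-06 without the filter, range 1.49e-06 to 0.757). The others passed in the same kinds of fit: Hbb-bs (anterior direction, adjusted p = 0.0109 without posterior replicate 1, 1.46e-11 with a replicate block over the 4 WT libraries, 8.24e-11 without the filter; range 1.46e-11 to 0.667), Hbb-bt (anterior direction, adjusted p = 0.00733 without posterior replicate 1, 0.0347 with a replicate block within genotype and 3.92e-19 with a replicate block over the 4 WT libraries, 1.61e-17 without the filter; range 3.92e-19 to 0.543) and Alas2 (anterior direction, adjusted p = 0.0105 without anterior replicate 1, 0.0228 without anterior replicate 2, 0.0341 without posterior replicate 1, 0.0255 with a replicate block within genotype, 0.0001 by DESeq2 and 3.29e-12 without the filter; range 3.29e-12 to 0.636). Their list summed to 814 and 1169 TPM in the anterior and 190.4 and 9.37 TPM in the posterior libraries, and the uncalled leukocyte list to 14.4 and 8.54 TPM in the anterior and 0.155 and 4.44 TPM in the posterior libraries. Neuronal markers were called in both directions, 2 of 8 each by edgeR and 3 anterior and 2 posterior by DESeq2 and without the filter, and summed to 16.7 and 32.3 TPM in the anterior and 56.7 and 42.4 TPM in the posterior libraries. Slc17a6, a vesicular glutamate transporter, was at 3.73 and 15.8 against 0 and 0.0182 TPM (1322-fold, 95% counting interval 366 to 10919; adjusted p = 0.00881, lost at 0.0813 in the 24-library fit). The neurofilament Nefl was at 2.22 and 1.75 against 0 and 0.0536 TPM (log2 fold change 7.01 ± 1.44, log2 range 5.76 to 7.67, adjusted p = 0.0287, lost at 0.328 in the 4-library, 0.0551 in the length and 0.156 in the 24-library fit; adjusted p = 0.11 with a replicate block over the 4 WT libraries, range 1.15e-16 to 0.328). A second neurofilament, Nefm (anterior direction, adjusted p = 0.00112 without posterior replicate 2, 0.00328 by DESeq2 and 0.00171 without the filter; range 0.00112 to 0.492), was not called with all libraries. Rbfox3, which encodes the neuronal nuclear protein NeuN, was at 0.264 and 0 against 37.8 and 13 TPM (log2 fold change -6.03 ± 1.12, log2 range -7.46 to -5.04, adjusted p = 0.0162, lost at 0.245 in the 4-library and 0.0864 in the 24-library fit). Gad2, which makes GABA, was at 2.63 and 0.15 against 3.97 and 5.73 TPM (log2 fold change -4.31 ± 0.86, log2 range -5.10 to -1.58, adjusted p = 0.0249, lost at 0.0767 in the 4-library and 0.214 in the 24-library fit). For Gad2 the fold change was -1.58 with an offset for transcript length (adjusted p = 0.561), so its size moved with the transcript lengths assigned to each library. The part of these cells in the differences between lobes was not tested.

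By size of change among called protein-coding genes at 10 TPM or more, the 10 anterior genes with the largest fitted change held several with no posterior read, whose folds are bounds and give no order. Hepacam2, an immunoglobulin-family adhesion protein, was at 28.1 and 24.1 TPM, at least 422-fold higher, and Agtr1a, an angiotensin II receptor, at 25.4 and 24.9 TPM, at least 326-fold higher (adjusted p = 0.00685, lost at 0.0971 in the 24-library fit for Hepacam2 and adjusted p = 0.0485, lost at 0.0914 in the 24-library fit for Agtr1a). Bcat1, a cytosolic enzyme that transfers amino groups from branched-chain amino acids, was at 31.4 and 25.4 TPM in the anterior and 0.0293 and 0 TPM in the posterior libraries (log2 fold change 9.03 ± 1.10, log2 range 8.30 to 10.10, adjusted p = 0.00204, lost at 0.0518 in the 24-library fit). Clgn, a chaperone of the endoplasmic reticulum, was at 14.9 and 11.7 against 0.033 and 0 TPM (584-fold, 95% counting interval 199.6 to 2835; adjusted p = 0.0233, lost at 0.0919 in the 24-library fit). Ms4a7, a membrane protein of myeloid cells, was at 16.5 and 21.3 against 0 and 0.0135 TPM (971-fold, 95% counting interval 174 to 38389; adjusted p = 0.0474, lost at 0.109 in the 4-library fit), and its call was also lost at adjusted p = 0.0508 without posterior replicate 1, within a range of 1.45e-05 to 0.109. The histone gene Hist2h3c1 (24 and 13.6 against 0 and 0 TPM, at least 239.8-fold; adjusted p = 0.0256, lost at 0.0919 in the 24-library fit) has near-identical copies, and the list also held Gal, Hba-a1, Gh and the BMP antagonist Nog. The posterior list held several receptors and collagens. Samd3 had no anterior read and was at 18.6 and 62.1 TPM in the posterior lobe, at least 372-fold higher (adjusted p = 0.0016). Col23a1, like Col25a1 a membrane collagen, was at 0.0121 and 0.00382 TPM in the anterior and 13.9 and 13.3 TPM in the posterior libraries (log2 fold change -8.95 ± 1.01, log2 range -10.45 to -7.42, adjusted p = 0.00144). Lgr5, a receptor for R-spondins, was at 0.0269 and 0.0658 TPM in the anterior and 12.6 and 36.9 TPM in the posterior libraries (log2 fold change -7.26 ± 1.0, log2 range -8.82 to -6.72, adjusted p = 0.00313, lost at 0.168 in the 24-library fit). Gfra1, the receptor for the neurotrophic factor GDNF, was at 0.107 and 0.521 TPM in the anterior and 36.4 and 33.2 TPM in the posterior libraries (log2 fold change -5.68 ± 0.89, log2 range -7.36 to -4.93, adjusted p = 0.00593, lost at 0.131 in the 24-library fit). Oacyl, a putative acyltransferase, was at 3.47 and 2.5 TPM in the anterior and 134 and 229 TPM in the posterior libraries (log2 fold change -6.04 ± 0.72, adjusted p = 0.00232). Wdr49 was at 0.586 and 0.219 against 23.2 and 25.7 TPM (log2 fold change -6.27 ± 0.90, log2 range -7.10 to -5.74, adjusted p = 0.00482, lost at 0.282 in the 24-library fit). Rnaset2b, which shares reads with its near-identical copy Rnaset2a, was at 0 and 0.0373 against 11.9 and 25.4 TPM (412-fold, 95% counting interval 140.5 to 1999.9; adjusted p = 0.0126, lost at 0.133 in the 4-library and 0.115 in the 24-library fit). Sstr1, Col25a1 and Rbfox3 completed the list. The most abundant transcripts were otherwise common to both lobes. Mir6236, mt-Atp8, mt-Rnr2, Gm10222, mt-Rnr1, Gm42418, Gm28900 and mt-Co1 were among the 10 highest in each, joined by Prl and mt-Cytb in the anterior and by Pomc and Gm23935 in the posterior lobe.

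Secreted factors were examined as the route by which parenchymal cells could act on ECs. From 185 genes for ligands, their secreted antagonists and enzymes of retinoic acid metabolism, 156 were tested. Of these, 4 were higher in the anterior lobe (2.56%, against 0.877% of all genes), 5 in the posterior lobe (3.21%, against 0.790%) and 147 were not called. Their median log2 fold change was 0.27, or 0.12 with genes at 0 in a lobe set at their bound, against 0 over all genes. Of the 185, 31 were at 0 in all 4 libraries and 45 reached 10 TPM in at least 1. The counts are small and moved with the libraries: without posterior replicate 1 the anterior count was 14, and without anterior replicate 1 it was 2. With a replicate block over the 4 WT libraries 8 anterior and 10 posterior factors were called. DESeq2 called 15 anterior and 13 posterior factors, edgeR without the filter 16 and 14, and the length fit 2 and 2. Over all genes these tests called 926 and 632, 566 and 452, and 92 and 80. For many of the factors, the level of a receptor in the sorted WT GFP-positive cells (ECs) is given as a description with no test. Receptors of Slit1, Ntn1, Sparcl1, Efna5, Ptn and Cxcl14 were not looked up. None of these levels shows that a factor reached the ECs.

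The VEGF, angiopoietin and apelin group gave 2 anterior calls of 8 tested, by edgeR and by DESeq2 alike. Angpt1, the ligand that activates the endothelial receptor Tie2 and stabilizes vessels, was at 59.5 and 60 TPM in the anterior and 0.369 and 4.68 TPM in the posterior libraries (log2 fold change 6.67 ± 0.87, log2 range 4.99 to 7.22, adjusted p = 0.00245), 23.6-fold apart by mean TPM. The call held in every alternative while the size moved, to a log2 fold change of 4.99 with an offset for transcript length. The gene lies at chr15:42424723-42676977 (GRCm38, GENCODE annotation). Its receptor Tek was at 133 and 193 TPM in anterior and 249 and 208 TPM in posterior ECs. The ECs were sorted by GFP under the Tek promoter, so its presence there was set by the sort. Vegfd, which acts through VEGFR3, was at 10.9 and 8.5 TPM in the anterior and 0.011 and 0.0295 TPM in the posterior libraries (596-fold, 95% counting interval 165 to 4928; adjusted p = 0.0143, lost at 0.099 in the 24-library fit), and its receptor Flt4 was at 25.3 and 37 TPM in anterior and 37.6 and 44.8 TPM in posterior ECs. Vegfa, the main endothelial growth factor, did not pass the test (11.6 and 20.9 against 7.99 and 20.7 TPM; log2 fold change 0.83 ± 0.48, adjusted p = 0.458), with ranges that overlapped almost completely. Its receptors were at 347 and 372 TPM in anterior and 555 and 536 TPM in posterior ECs for Kdr and at 209.7 and 232 TPM in anterior and 1103 and 1054 TPM in posterior ECs for Flt1. Vegfb was at 5.97 and 12.6 against 3.9 and 0.528 TPM (adjusted p = 0.441), passed at adjusted p = 0.043 without posterior replicate 1 and ranged from 0.043 to 0.899. Vegfc was at 5.9 and 8.95 against 0.583 and 4.77 TPM, while Pgf (1.87 and 0.319 against 2.39 and 4.6 TPM), the Angpt1 competitor Angpt2 (1.05 and 0.917 against 1.36 and 1.45 TPM) and Apln (3.84 and 2.41 against 2.67 and 0.671 TPM) stayed under 5 TPM. The apelin receptor Aplnr was at 114 and 62.8 TPM in anterior and 66.6 and 41.3 TPM in posterior ECs. Pericytes also make Angpt1. Of 8 mural markers, the 2 called were Pdgfrb at 3.33 and 3.02 against 0.168 and 0.0191 TPM and Kcnj8 at 0.373 and 3.44 against 0.0101 and 0 TPM. With all libraries the uncalled Rgs5, Abcc9 and Notch3 lay toward the anterior and Acta2, Tagln and Myh11 toward the posterior lobe. The list summed to 23.8 and 21.7 TPM in the anterior and 21.5 and 5.21 TPM in the posterior libraries. The part of mural cells in the level of Angpt1 was not tested.

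Among guidance ligands edgeR called 4 of 17 tested higher in the posterior lobe and none in the anterior lobe, with a median log2 fold change of -1.11 against 0 over all genes. DESeq2 called 1 anterior and 7 posterior and edgeR without the filter 2 anterior and 6 posterior. Sema3a, a repellent that binds neuropilin 1, was at 7.21 and 2.98 TPM in the anterior and 22.9 and 109 TPM in the posterior libraries (log2 fold change -3.38 ± 0.66, adjusted p = 0.0225, lost at 0.104 in the length and 0.152 in the 24-library fit). The call was also lost at adjusted p = 0.0778 without anterior replicate 1, and adjusted p ranged from 6.88e-06 to 0.152. Its receptor Nrp1 was at 160.4 and 196 TPM in anterior and 422 and 357 TPM in posterior ECs. Sema3e, which signals to ECs through plexin D1, was at 0.158 and 0.839 TPM in the anterior and 14 and 22.9 TPM in the posterior libraries (log2 fold change -5.00 ± 1.0, log2 range -6.34 to -4.32, adjusted p = 0.0244, lost at 0.337 in the 24-library fit), and Plxnd1 was at 243 and 268 TPM in anterior and 397 and 399 TPM in posterior ECs. Both semaphorins were low in the anterior lobe while their receptors were abundant in ECs of either lobe. Slit1, a ligand of Robo receptors, was at 5.32 and 1.67 TPM in the anterior and 21.2 and 82.4 TPM in the posterior libraries (log2 fold change -3.63 ± 0.62, adjusted p = 0.0124, lost at 0.0781 in the length and 0.427 in the 24-library fit). Ntn1, netrin 1, was at 0 and 0.328 TPM in the anterior and 10.2 and 3.55 TPM in the posterior libraries (log2 fold change -5.84 ± 1.28, log2 range -7.19 to -4.85, adjusted p = 0.0378, lost at 0.327 in the 4-library and 0.175 in the length fit). Slit2 lay in the opposite order (43.7 and 35.5 against 12.3 and 1.21 TPM) without passing the test (adjusted p = 0.0967, but adjusted p = 0.0102 without posterior replicate 1 and 1.93e-05 with a replicate block over the 4 WT libraries and 0.00834 by DESeq2 and 0.0026 without the filter; range 1.93e-05 to 0.403). Sema3f (8.19 and 4.71 against 5.03 and 29 TPM) and Efna5 (8.56 and 8.27 against 20.3 and 51.1 TPM) were not called, and the Sema3f receptor Nrp2 was at 50.8 and 60 TPM in anterior and 51.6 and 41.9 TPM in posterior ECs. Other uncalled guidance ligands that passed with 1 library left out or with a replicate block were Sema3d (posterior direction, adjusted p = 0.000968 without posterior replicate 2, 0.000289 by DESeq2 and 0.00013 without the filter and 0.0273 in the 24-library fit; range 0.00013 to 0.671), Slit3 (posterior direction, adjusted p = 0.0324 without anterior replicate 1, 0.0473 with a replicate block over the 4 WT libraries, 0.00232 by DESeq2 and 0.0459 without the filter; range 0.00232 to 0.432) and Efnb2 (anterior direction, adjusted p = 0.011 without posterior replicate 2, 0.0287 without the filter; range 0.011 to 0.578). By DESeq2 or in the 24-library fit alone passed Sema3b (posterior direction, adjusted p = 0.0422 by DESeq2; range 0.0422 to 0.944) and Sema3g (anterior direction, adjusted p = 0.0216 in the 24-library fit; range 0.0216 to 0.944). Melanotroph markers moved with these genes (Pax7 at 1.66 and 0.866 against 36.7 and 50.4 TPM), as did Col25a1 among pituicyte markers (0.196 and 0.226 against 36.6 and 33.7 TPM). Their part was not tested.

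Extracellular matrix and BMP modulators gave 1 call each, by edgeR and by DESeq2. Sparcl1, a matricellular protein of glia and other cells, was at 64.6 and 70.3 TPM in the anterior and 374 and 586 TPM in the posterior libraries (log2 fold change -2.68 ± 0.49, adjusted p = 0.0158), had the highest mean TPM of the 9 called factors, and held in every alternative. Its relative Sparc (40.8 and 47.3 against 14.8 and 43.3 TPM) and the protease inhibitors Timp2 (71.4 and 96 against 56.3 and 41.4 TPM) and Timp3 (22.8 and 20.9 against 15.1 and 20.4 TPM) were not called. Sparc passed in the anterior direction at adjusted p = 0.0411 without posterior replicate 1, within a range of 0.0411 to 0.675. Nog, the BMP antagonist noggin, was at 15 and 16.1 TPM in the anterior lobe with no posterior read, at least 195-fold higher (adjusted p = 0.0474, lost at 0.0581 in the length and 0.0518 in the 24-library fit). Its call lay close to the threshold and was also lost at adjusted p = 0.0614 without anterior replicate 1 and 0.0549 without posterior replicate 2, within a range of 1.54e-06 to 0.0614. With a replicate block within genotype it was also lost (adjusted p = 0.0531). No BMP or TGF-beta ligand of 16 was called by edgeR with all libraries, 1 had an unadjusted p under 0.05. DESeq2 called 1, Bmp4 (anterior direction, adjusted p = 0.0197 by DESeq2; range 0.0197 to 0.531). With 1 library left out Bmp5 (anterior direction, adjusted p = 0.0218 without posterior replicate 1; range 0.0218 to 0.953) passed. Bmp7 was at 0.672 and 1.26 against 5.01 and 6.25 TPM and Bmp6 at 4.4 and 9.69 against 5.5 and 4.93 TPM, and their shared receptor Bmpr2 was at 61.8 and 90.7 TPM in anterior and 204 and 218 TPM in posterior ECs. Tgfb1, Tgfb2 and Tgfb3 stayed under 9 TPM, and their receptor Tgfbr2 was at 31.4 and 40.3 TPM in anterior and 41.3 and 46.3 TPM in posterior ECs. Cyp26b1, which degrades retinoic acid, was called in the anterior lobe at a very low level (0.599 and 0.132 against 0.00313 and 0.00853 TPM; 91.6-fold, 95% counting interval 25.1 to 761; adjusted p = 0.0278, lost at 0.412 in the 4-library and 0.0838 in the length fit) and was also lost at adjusted p = 0.067 without anterior replicate 1 and 0.842 with a replicate block over the 4 WT libraries, within a range of 0.000167 to 0.842. Aldh1a2, which makes retinoic acid, was at 42.5 and 41.2 against 5.2 and 1.93 TPM (adjusted p = 0.207, but adjusted p = 0.0464 without posterior replicate 1 and 2.46e-09 with a replicate block over the 4 WT libraries and 0.0244 by DESeq2 and 2.64e-06 without the filter; range 2.46e-09 to 0.37). Its relative Aldh1a1 (anterior direction, adjusted p = 0.000143 without posterior replicate 1, 0.00784 by DESeq2 and 0.000175 without the filter; range 0.000143 to 0.899) passed too. Of the 8 genes of retinoic acid metabolism tested, DESeq2 and edgeR without the filter thus called 3, all in the anterior direction.

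Wnt signals were of particular interest in this study, because beta-catenin signaling in brain ECs depends on Wnt7a, Wnt7b and norrin (Ndp). None of 16 Wnt, norrin and R-spondin genes tested was called by edgeR with all libraries, nor any of 12 secreted Wnt inhibitors, while 4 and 3 had an unadjusted p under 0.05. DESeq2 called 1 anterior and 2 posterior genes of the first list (Ndp, Wnt5a and Wnt5b) and 2 anterior inhibitors, Sfrp4 (adjusted p = 0.0243, range 0.0243 to 0.697) and Apcdd1 (adjusted p = 0.0331, range 0.0331 to 0.91). Without a filter on low counts edgeR called 1 anterior and 3 posterior genes of the first list and the inhibitor Sostdc1 in the posterior direction (adjusted p = 0.00446, range 0.00446 to 1). Wnt7a was at 0 in all 4 libraries, Wnt7b was at 0.00961 and 0.0115 against 0 and 0 TPM, and Ndp had reads in anterior replicate 2 alone (2.15 TPM). Wnt7a and Wnt7b were thus at or near the floor in either lobe at this depth. Ndp passed the test by DESeq2 (adjusted p = 0.0297) and by edgeR without a filter on low counts (adjusted p = 0.0118), within a range of 0.0118 to 1. The most abundant member was Wnt5b, a ligand mainly of beta-catenin-independent signaling, at 2.65 and 1.63 against 47.9 and 28.7 TPM (log2 fold change -4.06 ± 0.95, log2 range -4.61 to -3.27, adjusted p = 0.0527), just outside the threshold. It passed at adjusted p = 0.0487 with RLE normalization, at adjusted p = 0.0078 without posterior replicate 2 and at adjusted p = 0.0428 with a replicate block within genotype and 5.14e-08 with a replicate block over the 4 WT libraries, by DESeq2 at 0.000143 and without the filter at 1.25e-05, within a range of 5.14e-08 to 0.14, as did, with 1 library left out, Wnt3 (posterior direction, adjusted p = 0.0166 without posterior replicate 1, 0.0392 without the filter; range 0.0166 to 1). Wnt5a was at 0.334 and 0.371 against 1.88 and 6.05 TPM (adjusted p = 0.115, but 0.00148 by DESeq2 and 0.0311 without the filter and 0.0185 in the 24-library fit; range 0.00148 to 0.528). The norrin receptor components were present in ECs, Fzd4 at 35.2 and 40.4 TPM in anterior and 91.4 and 95.2 TPM in posterior ECs and Tspan12 at 152 and 218 TPM in anterior and 459 and 218 TPM in posterior ECs. Among inhibitors Dkk3 was the highest (3.66 and 7.66 against 8.5 and 5.19 TPM), and Wif1 was at 0 in all 4 libraries.

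Of 14 chemokine and cytokine genes tested, none was called by edgeR with all libraries, 7 had an unadjusted p under 0.05, and DESeq2, like edgeR without the filter on low counts, called 4 anterior and 1 posterior, among them Ccl2 (anterior direction, adjusted p = 0.000393 by DESeq2 and 0.0236 without the filter; range 0.000393 to 0.543) and Cxcl10 (anterior direction, adjusted p = 0.0421 by DESeq2; range 0.0421 to 0.654). Cxcl12, the ligand of CXCR4 and ACKR3, was at 17.2 and 19 against 3.44 and 0.0767 TPM (log2 fold change 3.38 ± 0.90, log2 range 2.50 to 6.19, adjusted p = 0.0956). It passed at adjusted p = 0.000425 without posterior replicate 1, 0.00173 with a replicate block over the 4 WT libraries and 0.00244 by DESeq2 and 1.76e-05 without the filter and ranged from 1.76e-05 to 0.343. In ECs Ackr3 was at 22.9 and 15.5 TPM in anterior and 58 and 30.2 TPM in posterior ECs, and Cxcr4 stayed under 4 TPM. Ackr3 itself was the single called gene of 39 EC receptors tested in the GFP-negative cells with all libraries, at 4.44 and 1.18 TPM in the anterior lobe with no posterior read, at least 89-fold higher (adjusted p = 0.00482), and was lost at adjusted p = 0.21 with the 4 libraries alone and 0.0786 with a replicate block over the 4 WT libraries, within a range of 4e-08 to 0.21. DESeq2 called 5 anterior and 1 posterior receptors. The count by edgeR without the filter on low counts was 3 anterior and 0 posterior. Uncalled receptors that passed with 1 library left out or with a replicate block were Fzd4 (anterior direction, adjusted p = 0.00255 without posterior replicate 1; range 0.00255 to 0.757), Tspan12 (anterior direction, adjusted p = 0.00334 without posterior replicate 1, 0.0381 with a replicate block over the 4 WT libraries, 0.0336 by DESeq2 and 0.0161 without the filter; range 0.00334 to 0.393), Tgfbr2 (anterior direction, adjusted p = 0.0435 without posterior replicate 1; range 0.0435 to 0.782), Ednrb (anterior direction, adjusted p = 0.0435 without posterior replicate 1; range 0.0435 to 1), Ramp2 (anterior direction, adjusted p = 0.0214 without posterior replicate 1, 0.0393 by DESeq2 and 0.0318 in the 24-library fit; range 0.0214 to 0.857) and Npr3 (anterior direction, adjusted p = 0.0429 without anterior replicate 2, 0.000135 by DESeq2 and 0.00421 without the filter and 0.0352 in the 24-library fit; range 0.000135 to 0.338). By DESeq2 alone those that passed were Cxcr4 (anterior direction, adjusted p = 0.000675 by DESeq2; range 0.000675 to 0.847) and Ghr (posterior direction, adjusted p = 0.0398 by DESeq2; range 0.0398 to 0.701). Cxcl14 (23.7 and 28.9 against 5.96 and 5.92 TPM; log2 fold change 2.36 ± 0.57, adjusted p = 0.0615, but 0.00291 by DESeq2 and 0.000437 without the filter; range 0.000437 to 0.442) and Cx3cl1 (9.33 and 2.81 against 39.7 and 58.2 TPM; adjusted p = 0.0883, but adjusted p = 0.0204 without posterior replicate 1 and 4.12e-06 with a replicate block over the 4 WT libraries and 0.00428 by DESeq2 and 0.000224 without the filter; range 4.12e-06 to 0.325) lay in opposite orders. Il1b was present throughout (27 and 30.6 against 22.5 and 82.7 TPM). Growth factors of the FGF, PDGF, EGF and HGF families (21 tested) and IGF ligands and binding proteins (8 tested) gave no call by edgeR with all libraries, 5 and 3 of them had an unadjusted p under 0.05. DESeq2 called 2 posterior genes of the first group, among them Pdgfc (posterior direction, adjusted p = 0.00626 by DESeq2; range 0.00626 to 0.757), and none of the second. Without the filter on low counts edgeR called 1 anterior and 2 posterior genes of the first and 1 anterior gene of the second group. With 1 library left out or with a replicate block Fgf10 (posterior direction, adjusted p = 0.000501 without anterior replicate 1, 0.0088 with a replicate block over the 4 WT libraries, 1.23e-05 without the filter; range 1.23e-05 to 0.485), Pdgfd (posterior direction, adjusted p = 0.0031 without anterior replicate 1, 0.00226 with a replicate block over the 4 WT libraries, 0.0411 by DESeq2 and 0.000195 without the filter; range 0.000195 to 0.425), Hbegf (anterior direction, adjusted p = 0.00268 without posterior replicate 1; range 0.00268 to 1), Mdk (anterior direction, adjusted p = 0.0408 without posterior replicate 1, 0.048 without the filter; range 0.0408 to 0.775) and Igfbp5 (anterior direction, adjusted p = 0.00752 with a replicate block over the 4 WT libraries, 0.00152 without the filter; range 0.00152 to 0.455) passed, and among cytokines Il33 (anterior direction, adjusted p = 6.28e-06 without posterior replicate 1, 0.0028 with a replicate block over the 4 WT libraries, 0.0152 without the filter; range 6.28e-06 to 0.901). The abundant members were Ptn, a heparin-binding growth factor (56.7 and 82.8 against 60.6 and 160.2 TPM), Fgf9 (44.2 and 11.3 against 21.1 and 20.4 TPM) and Igfbp5 (129 and 148 against 47.4 and 72.8 TPM). Igf2 was at 9.36 and 8.75 against 2.39 and 2.45 TPM, Igf1 stayed under 4 TPM, and Fgf1 was at 14.3 and 1.15 against 2.41 and 2.01 TPM. Vasoactive peptides (7 tested) were sparse and none was called by edgeR or DESeq2, with 2 at an unadjusted p under 0.05. Edn1 was at 0 in all 4 libraries, Edn3 was at 0.349 and 1.56 against 3.47 and 0.116 TPM, Adm at 0.334 and 0 against 1.33 and 3.94 TPM and Nppc at 2.09 and 5.25 against 0 and 0 TPM, although their receptors in ECs included Ednrb at 96.9 and 137 TPM in anterior and 363 and 156 TPM in posterior ECs and Npr2 at 86.9 and 60.7 TPM in anterior and 29.5 and 74.6 TPM in posterior ECs. The adrenomedullin receptor Calcrl was at 62.3 and 109 TPM in anterior and 145 and 162 TPM in posterior ECs, and the receptors Fgfr1 and Igf1r at 12.5 and 11.5 TPM in anterior and 13.7 and 47.1 TPM in posterior ECs and 11.5 and 5.69 TPM in anterior and 12.1 and 8.91 TPM in posterior ECs. Hedgehog ligands stayed under 2 TPM, with no call by edgeR or DESeq2 among 3 genes of their list tested and 1 at an unadjusted p under 0.05, of which Hhip (anterior direction, adjusted p = 0.000496 without posterior replicate 2, 0.034 without the filter; range 0.000496 to 1) passed with 1 library left out, and edgeR without the filter on low counts called 1 anterior gene.

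Receptors for the hormones themselves were looked up for growth hormone, prolactin, oxytocin and vasopressin only. Ghr, the growth hormone receptor, was at 14.9 and 11 TPM in anterior and 26.2 and 13.8 TPM in posterior ECs. Prlr, the prolactin receptor, stayed under 1 TPM in all 4 EC libraries, and the receptors for oxytocin (Oxtr) and vasopressin (Avpr1a) were at 0 in all of them. In the GFP-negative cells Prlr was at 14.8 and 6.68 against 5.18 and 19.8 TPM and Ghr at 1.53 and 2.06 against 8.73 and 13.9 TPM, and edgeR called neither, while DESeq2 called Ghr in the posterior direction (log2 fold change -1.82 ± 0.66, log2 range -2.50 to -1.56, adjusted p = 0.249 by edgeR and 0.0398 by DESeq2).

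**Figure D4:**
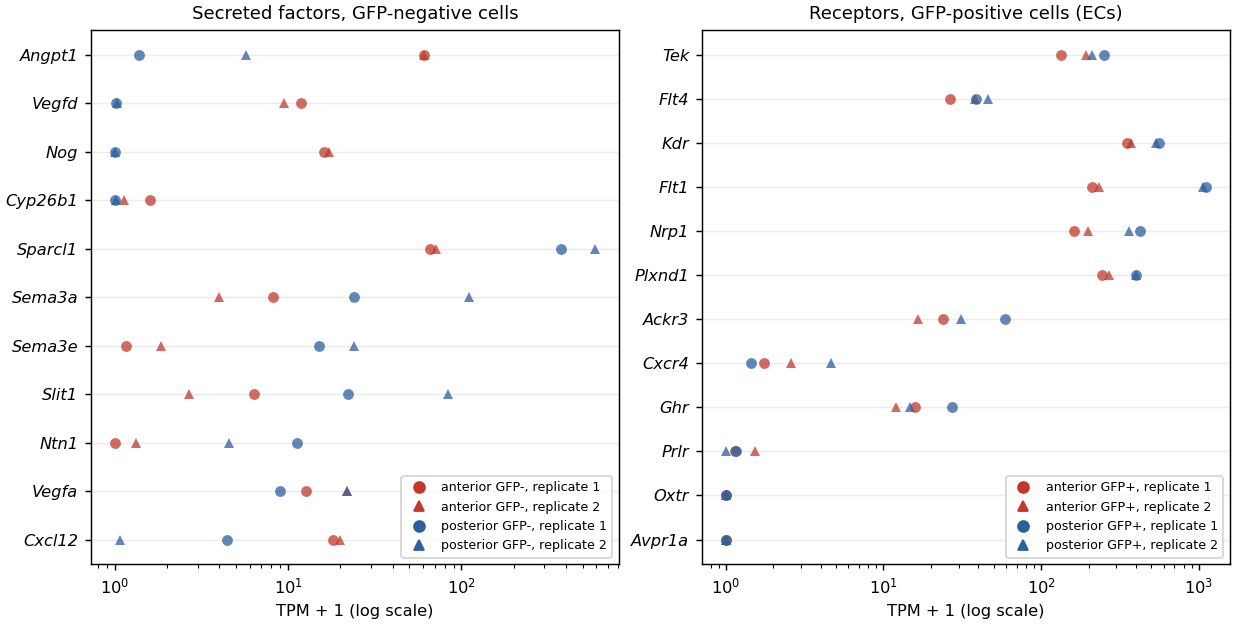
Left, levels of 11 secreted factors or enzymes in the 4 WT GFP-negative libraries; right, levels of 12 EC receptors in the 4 WT GFP-positive libraries, both as TPM plus 1 on a log axis, with red for the anterior and blue for the posterior lobe. Angpt1, Vegfd and Nog lie to the right in the anterior lobe and Sparcl1, Sema3a, Sema3e, Slit1 and Ntn1 in the posterior lobe, while Vegfa overlaps.

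The stabilized lobes offered a second set of pools, with no library in common with the WT contrast but with the estimate of spread shared. There 35 genes were called higher in the anterior lobe (0.178% of those tested) and 27 in the posterior lobe (0.138%). With a replicate block over the 4 stabilized libraries 613 and 548 were called. Mitochondrially encoded genes took 27.0 and 23.7% of reads in the stabilized anterior and 35.9 and 35.6% in the stabilized posterior libraries, more than in any WT lobe library, and the part of this in the comparison was not tested. Of the 172 WT anterior calls, 162 had the same sign in the stabilized lobes and 25 were called there, and of the 155 WT posterior calls 152 had the same sign and 24 were called. Over all genes, the sign was shared by 63.5% of the 9784 with a WT difference toward the anterior lobe and by 59.8% of the 8501 toward the posterior lobe. The called genes' fold changes were smaller there, with medians of 2.13 and -1.76 against 6.07 and -3.22 in WT, the contrast in which they were chosen. Leaving out 1 stabilized library changed the counts: 93 anterior and 61 posterior genes were called without posterior replicate 1, 58 and 41 without anterior replicate 1, 68 anterior genes without anterior replicate 2 and 54 posterior genes without posterior replicate 2.

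The hormones recurred. In the stabilized lobes Prl was at 16781 and 24446 TPM in the anterior and 26.1 and 2.52 TPM in the posterior libraries (log2 fold change 10.16 ± 1.08, adjusted p = 0.0163). Gh was at 7456 and 14329 against 11.1 and 3.08 TPM (10.23 ± 1.38, adjusted p = 0.0204), and Chgb at 814 and 1220.5 against 118 and 81.1 TPM (2.73 ± 0.40, adjusted p = 0.022). Pomc was at 7469 and 16332 against 27436 and 41279.7 TPM and was again not called (-2.28 ± 1.22, adjusted p = 1). The order of the lobes was the same for each of these genes in both genotypes. Pcsk2 was at 14.3 and 24.9 against 107 and 121 TPM (-2.78 ± 0.52, adjusted p = 0.0463) and Col25a1 at 0.645 and 0.679 against 14.3 and 17.1 TPM (-5.30 ± 0.91, adjusted p = 0.0304), both called, while Pax7 was at 1.43 and 2.18 against 9.23 and 11.3 TPM (-2.68 ± 0.51, adjusted p = 0.0582). None of the 9 secreted factors called in WT was called in the stabilized lobes by the test over 12 libraries, and 8 had the same sign there. Angpt1 was at 21.6 and 15.7 against 2.04 and 1.09 TPM (3.77 ± 0.76, adjusted p = 0.0677), Vegfd at 8.23 and 15.9 against 0.127 and 0.0761 TPM (6.38 ± 1.36, adjusted p = 0.0994) and Slit1 at 1.86 and 1.36 against 16.8 and 16.4 TPM (-3.02 ± 0.60, adjusted p = 0.0715). Sparcl1 was at 77 and 36.5 against 203 and 85.8 TPM (-1.34 ± 0.47, adjusted p = 0.636), and Sema3a at 1.59 and 2.56 against 25.6 and 13.5 TPM (-2.24 ± 0.63, adjusted p = 0.309). Sema3e was at 2.53 and 2.11 against 9.87 and 11.9 TPM (-2.77 ± 0.90, adjusted p = 0.506), Ntn1 at 0.594 and 0.228 against 5.56 and 3.51 TPM (-2.33 ± 1.08, adjusted p = 1) and Nog at 1.91 and 0.265 against 0 and 0 TPM (adjusted p = 0.347). Cyp26b1, the exception, was at 0.108 and 0.017 against 0.051 and 0.288 TPM, with ranges that overlapped and a fold change opposite in sign to that in WT (-0.46 ± 0.97, adjusted p = 1). A missed threshold in the stabilized lobes does not show a difference between genotypes. That difference was tested as the interaction of lobe and genotype, which passed for 1 of 19612 genes, Cdh22, which is in none of the lists. Unadjusted, 1027 genes had p under 0.05, and no alternative fit was run for this interaction.

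**Figure D5:**
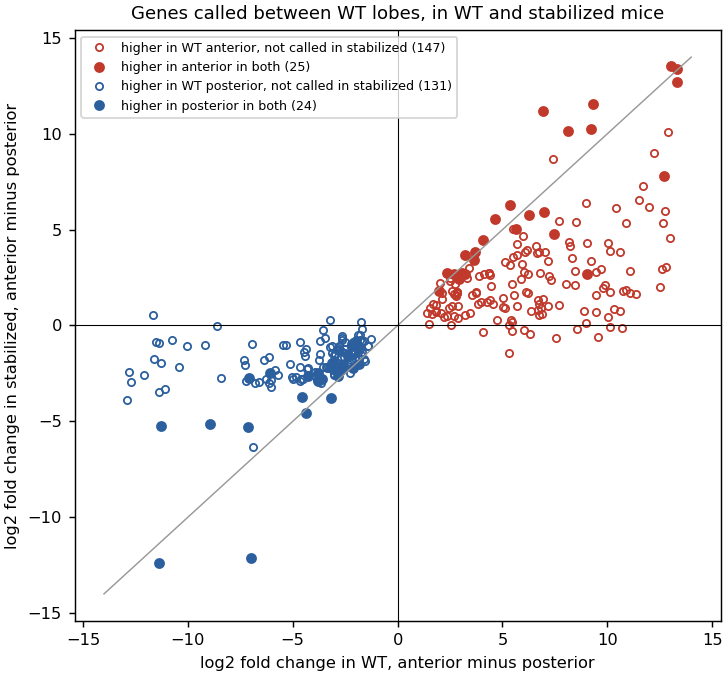
Each point is a gene called between the WT lobes, with its log2 fold change (anterior minus posterior) in WT on the x axis and in stabilized mice on the y axis; filled points were also called in stabilized mice, and the gray line marks equal values. Of the 172 red points 162, and of the 155 blue points 152, have the same sign in both genotypes.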

How the data were processed

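GFP-negative cells of 2 anterior and 2 posterior WT pituitary pools were sequenced after amplification of cDNA. The authors assigned single-end reads to transcripts of the mouse transcriptome by Salmon, whose settings adjusted for biases of position, base sequence and GC content. The submitters' processing notes name Salmon 0.10.2 and kallisto 0.44.0 and the mm10 (GRCm38) build. The deposited tables give, per transcript, an estimated count of reads and a TPM, both as the authors computed them. The effective length in the deposited tables entered 1 alternative. From these, 130338 of 130740 transcripts were matched to GENCODE M21, reads outside it being 0.127 to 0.385% of a library, and estimated counts and TPM were summed per gene. The rounded sums entered the quasi-likelihood test of edgeR 4.0.16 (R 4.3.3; TMM, filterByExpr) over the 12 GFP-negative libraries of WT and stabilized cerebellum and pituitary lobes, which share the estimate of spread. Benjamini-Hochberg adjustment ran over 19612 genes. edgeR stood in for the EBSeq of the study, which was not used here. The code was tested on simulated data. Fold bounds set a lobe with no read at 3 counts per library, and 95% intervals (exact, Clopper-Pearson) are given for 1 to 3 counts. Both cover counting error only, and amplified reads without molecular identifiers are not independent molecules. Members and 42 lists (412 genes) were chosen with earlier results of these data known. Full values were given for up to 4 called members per list and lobe with the highest TPM, for hormones, for the 10 largest changes per lobe among called protein-coding genes with at least 10 TPM in both libraries of the higher lobe, and for ligands of EC receptors, of which those at low levels are summarized by range. Tables were made with Python 3.11.15 and pandas 2.3.3. Alternatives were DESeq2 1.42.0, RLE normalization, other filters and library sets, a length offset, a replicate block and leaving out each library. The methods describe both lobes of a replicate as taken from the same mice, which pairs the replicate numbers, although differences between replicates correlated between the lobes at only -0.0003 (WT) and 0.0716 (stabilized) over genes.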

Additional observations from a re-analysis of the deposited data

Results flagged for a closer look

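One gene differed between WT and stabilized mice in its contrast between the lobes by the test of the difference itself. Cdh22, which encodes a cadherin, had no read in the WT anterior libraries and was at 2.74 and 9.31 TPM in the WT posterior libraries, at least 401-fold higher there (edgeR, adjusted p = 0.000242). In stabilized mice it was at 0.297 and 0.503 TPM in the anterior and 1.36 and 1.38 TPM in the posterior libraries (log2 fold change -2.43 ± 0.56, adjusted p = 0.144). The difference between these contrasts had an adjusted p of 0.0303 over 19612 genes by edgeR with all libraries and the filter. No alternative fit was run for this difference. It sets a WT contrast known only as a bound against low levels in the stabilized anterior libraries. The gene was named after its values were seen.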

How the results depend on the processing

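The number of genes called depended strongly on the test, while none of the 59 genes named as called changed direction in any alternative. Of 313 uncalled list members, 102 had the opposite sign in at least 1 alternative, and 3 of them also passed the test there, without posterior replicate 1: Cnp, Mrc1 and Ednrb were then higher in the anterior lobe, with log2 fold changes of 3.90, 4.91 and 2.23, and over the libraries left out in turn these ran from -1.61 to 3.90, -1.43 to 4.91 and -1.16 to 2.23. In the order higher in the WT anterior, WT posterior, stabilized anterior and stabilized posterior lobe, and then secreted factors higher in the WT anterior and WT posterior lobe, DESeq2 called 926, 632, 203, 142, 15 and 13 genes. Without a filter on low counts edgeR called 566, 452, 226, 183, 16 and 14. An offset for transcript length left 92, 80, 14, 6, 2 and 2. A minimum of 10 TPM left 70, 92, 21 and 14 genes and 2 anterior secreted factors. With only the 4 libraries of a contrast the first 4 counts were 54, 68, 184 and 168, and with all 24 sorted libraries the last 3 of these were 73, 10 and 2. Of those 24, the labels of 1 EC library of the stabilized pituitary name different lobes, and it was grouped by its title. Leaving out 1 library gave 198 to 764, 146 to 306, 46 to 93, 24 to 61, 2 to 14 and 5 to 7, the lone library left being assumed to vary like the other groups. The causes of these shifts were not tested. With a replicate block over 4 libraries the counts were 311, 303, 613, 548, 8 and 10, with the median over all genes at 0.15 in WT and 0.01 in stabilized lobes, and with a block within genotype over 12 libraries they stayed within 1.5 times. Apart from the genes given with a blocked value, neither block changed the call of a list member or other gene named. Of 59 genes called and named with full values, DESeq2, RLE normalization and no filter kept 59 each, the block within genotype 58, the block over 4 libraries 53, the length offset 43, the 4 libraries alone 40 and all 24 libraries 24. Gh, Prl, Pou1f1, Neurod4, Pcsk2, Col25a1, Angpt1, Sparcl1, Samd3, Col23a1, Oacyl, Cdh22, Syt1 and Jam2 were called in each. The length offset ended the calls of Drd2, Tbx19, Slc1a3, Nefl, Gad2, Six3, Thrb, Kcnj10, Nog, Sema3a, Slit1, Ntn1, Cyp26b1, Thsd7a, Igsf1 and Esm1. Depth limits low transcripts most in posterior replicate 2, with 18406617 estimated reads. Of the called genes with 1 to 3 counts in the lower lobe, these moved by over 1.5 times, given as log2 ranges over the alternatives. Kcnj8 ran from 5.51 to 8.50, Slc17a6 from 8.845 to 10.43 and Cyp26b1 from 4.74 to 7.03. Clgn ran from 8.46 to 9.49, Ms4a7 from 8.33 to 10.85 and Rnaset2b from -9.28 to -7.7.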

Other observations

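Several abundant genes outside the lists also differed between the WT lobes by edgeR. They were picked after their values were seen and are given as description. On the anterior side Igsf1, a pituitary membrane protein whose loss causes central hypothyroidism, was at 182 and 213 TPM in the anterior and 13.3 and 53.9 TPM in the posterior libraries (log2 fold change 3.70 ± 0.55, log2 range 2.85 to 3.90, adjusted p = 0.00592, lost at 0.0978 in the length and 0.152 in the 24-library fit). On the posterior side stood a transcription factor and proteins of membranes and vesicles. Etv1, an ETS factor, was at 25.5 and 33.4 TPM in the anterior and 174 and 174 TPM in the posterior libraries (log2 fold change -2.64 ± 0.37, adjusted p = 0.00343, lost at 0.057 in the 24-library fit). Syt1, the calcium sensor of vesicle release, was at 13.3 and 8.37 TPM in the anterior and 72.8 and 136 TPM in the posterior libraries (log2 fold change -3.11 ± 0.35, adjusted p = 0.00144). Neither range overlapped between the lobes. Jam2, a junctional adhesion molecule, was at 2.65 and 6.25 TPM in the anterior and 65 and 99 TPM in the posterior libraries (log2 fold change -3.79 ± 0.42, adjusted p = 0.00144). Esm1, a secreted proteoglycan known mainly from ECs, was at 6.5 and 13.1 TPM in the anterior and 104 and 195 TPM in the posterior libraries (log2 fold change -3.82 ± 0.82, adjusted p = 0.0349, lost at 0.0734 in the length and 0.19 in the 24-library fit). That call was lost at adjusted p = 0.069 without anterior replicate 1, within a range of 1.69e-16 to 0.19. The summed endothelial markers beside it ran the other way, at 30.1 and 25.6 TPM in the anterior and 7.1 and 3.33 TPM in the posterior libraries, and their part was not tested.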
